A study of Mus musculus with 2 samples.

Results

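The collagen chain genes of the mouse adrenal gland were described in 2 total RNA-seq libraries. They were taken as every annotated gene whose symbol has the form Col, a number, a and a number, which gave 44 genes of 55536 annotated genes: 11 fibrillar chains, 6 basement membrane chains, 6 beaded filament chains and 21 others. Both libraries came from adrenal glands of male B6CASTF1/J mice aged 25 days, an F1 cross by its strain name, with no treatment named, and 300 ng of RNA went into each directional, ribosomal RNA-reduced library with ERCC spike-ins. There is 1 group, so the only comparison is of replicate 1 with replicate 2. The biosample labels give animal 3 for replicate 1 and animal 4 for replicate 2, whereas the library labels give animal 3 for both, so the spread between them may be technical.

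Collagens are secreted proteins built of 3 chains wound into a helix, in which glycine opens each triplet of residues. Fibrillar collagens form the tensile cables of capsule and stroma. Basement membrane collagens form sheets under endothelium and around epithelial-like cell cords. Beaded filaments of collagen VI link cells to the matrix around them. FACIT chains decorate fibrils, multiplexins lie between basement membrane and stroma, and transmembrane collagens stay on the cell surface. In the adrenal gland the fibrous capsule, the thin stroma between cortical cords and the walls of the sinusoids are the known sites of collagen.

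The repeat that defines these proteins was read from the coding sequence, because its longest unbroken run sets the fibrillar chains apart from the others. In the GENCODE M21 transcripts, a run was counted wherever a glycine codon (GGN) opened each of at least 3 successive triplets of codons. The longest run had between 216 and 344 triplets in the 11 fibrillar chains, between 39 and 66 in the 6 basement membrane chains, between 37 and 87 in the 6 beaded chains and between 23 and 113 in the 21 others, so only the fibrillar range did not overlap another class. Col3a1 had the longest run, of 344 triplets, and Col1a1 and Col1a2 had runs of 338 and 339. Col27a1 and Col24a1 stood apart among fibrillar chains with longest runs of 217 and 216 triplets. Col4a1 had 23 such runs and Col4a2 had 24, whereas Col1a1, Col1a2 and Col3a1 each had 2. Runs were counted by codon position alone, so a short one need not belong to the helix.

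The exons below show the repeat in 4 fibrillar chains that are abundant in these glands. Each is the first 54-base exon inside the longest run, read 5′ to 3′ on the coding strand (mm10, GENCODE M21), with glycine codons in capitals. They lie at chr11:94939904-94939957 (plus strand, Col1a1 exon 8), chr6:4515481-4515534 (plus, Col1a2 exon 8), chr1:45325360-45325413 (plus, Col3a1 exon 6) and chr9:20801068-20801121 (minus, Col5a3 exon 15).
Col1a1: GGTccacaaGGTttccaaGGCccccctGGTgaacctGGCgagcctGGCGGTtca
Col1a2: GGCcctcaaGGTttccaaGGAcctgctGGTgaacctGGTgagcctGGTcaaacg
Col3a1: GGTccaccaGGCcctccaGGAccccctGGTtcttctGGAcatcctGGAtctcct
Col5a3: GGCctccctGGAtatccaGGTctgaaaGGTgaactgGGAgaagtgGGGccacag

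The next pair shows exons of basement membrane chains in which the spacing of the capitals breaks. The exons are Col4a1 exon 2 at chr8:11267597-11267656 (minus strand) and Col4a2 exon 12 at chr8:11406813-11406854 (plus strand), chosen as the first short exon of each gene that holds a break. The Col4a1 exon lies near the start of the coding sequence, and whether its break falls within the helix was not tested.
Col4a1: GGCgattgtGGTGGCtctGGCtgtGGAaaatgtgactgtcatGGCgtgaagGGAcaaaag
Col4a2: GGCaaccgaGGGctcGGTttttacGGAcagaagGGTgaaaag

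Exon lengths carried the same repeat. Of 625 internal coding exons of the 11 fibrillar chains, 305 (48.8%) were exactly 54 bases long and 525 (84.0%) had a length divisible by 9, the number of bases in a triplet of codons. Of 284 such exons in the 6 basement membrane chains, 12 were 54 bases long and 134 (47.2%) were divisible by 9. Over 149978 internal coding exons of other protein-coding genes, 0.402% were 54 bases long and 13.6% were divisible by 9. These are properties of the annotation and hold whatever the gene's level.

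**Figure D1:**
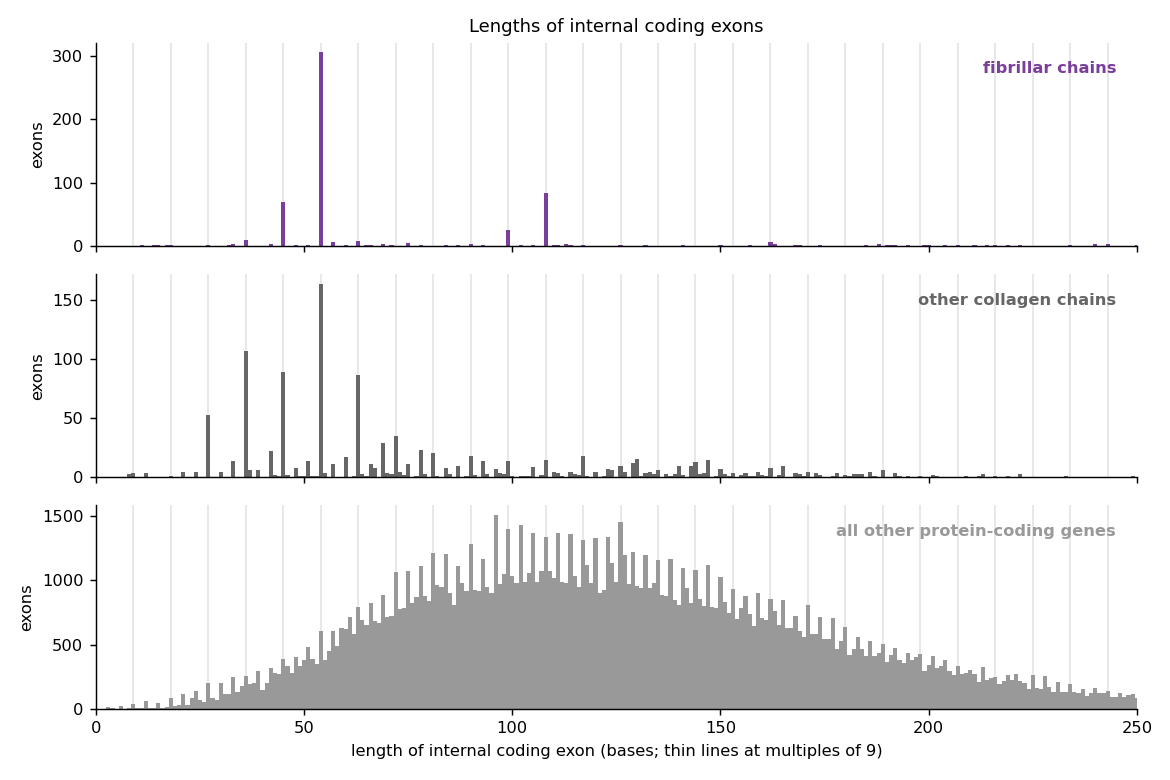
Number of internal coding exons (vertical axis) by exon length in bases (horizontal axis), for fibrillar chains (top), other collagen chains (middle) and all other protein-coding genes (bottom), with thin lines at multiples of 9. The 305 exons of 54 bases form the tallest bar of the fibrillar chains, and 63.9% of collagen exons have a length divisible by 9, against 13.6% of the exons of other genes.

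Replicate 1 held 35283841 expected counts and replicate 2 held 35156690, where an expected count is the number of fragments that the authors' quantifier assigned to a gene. Levels are given as TPM, the authors' share of transcripts after division by transcript length, which allows levels of different chains to be set side by side. The authors deposited 2 quantifications, and levels come from the first unless the second is named. The libraries differed in markers of other tissues. Liver markers summed to 105.5 TPM in replicate 1, against 17397 TPM in replicate 2, and replicate 1 was the lower by 2-fold or more for each of 6. Skeletal muscle markers summed to 1143 TPM in replicate 1, against 1.84 TPM in replicate 2, and replicate 1 was the higher by 2-fold or more for each of 6. Of 11 capsule and stromal markers, 10 had at least 1 TPM in both libraries and they summed to 111.2 and 84.8 TPM. Fewer cells of a type and less RNA per cell cannot be told apart in such bulk samples, nor can a collagen transcript be assigned to capsule, stroma or vessel.

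Collagen chains together held 0.0856% of all TPM in replicate 1 and 0.0744% in replicate 2 (mean 0.0800% ± 0.00791, SD, n = 2). As a share of counts this was 0.438% in replicate 1, with a 95% exact Clopper-Pearson interval of 0.436% to 0.440%, and 0.374% in replicate 2, with an interval of 0.372% to 0.376%. These intervals cover counting error only, since no molecular identifiers are recorded. Fibrillar chains took 38.6% and 36.3% of collagen TPM in replicates 1 and 2, basement membrane chains 36.3% and 29.8%, beaded chains 18.0% and 15.8%, and all others 7.17% and 18.1%. The other chains were the class whose share differed most. They summed to 61.4 TPM in replicate 1 and 134.8 TPM in replicate 2, of which Col18a1, described below, held 10.2 and 88.6 TPM. Without Col18a1 the collagen sum was 846.1 TPM in replicate 1, against 655.8 TPM in replicate 2.

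The family was steep. Of 44 chains, 21 (47.7%) reached 1 TPM in both libraries, against 54.1% of 22015 nuclear protein-coding genes, and the median mean level was 1.12 TPM, against 2.46 TPM for those genes. The 16 chains with a mean of at least 5 TPM carried 96.4% of collagen TPM in replicate 1 and 96.9% in replicate 2. A further 6 chains reached 1 TPM in a single library (Col8a1, Col4a3, Col25a1, Col23a1 and Col8a2 in replicate 1, Col6a5 in replicate 2), and 17 stayed under 1 TPM in both. The members that passed the count minimum of the test used below (at least 10 counts in total) numbered 39 of 44.

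**Figure D2:**
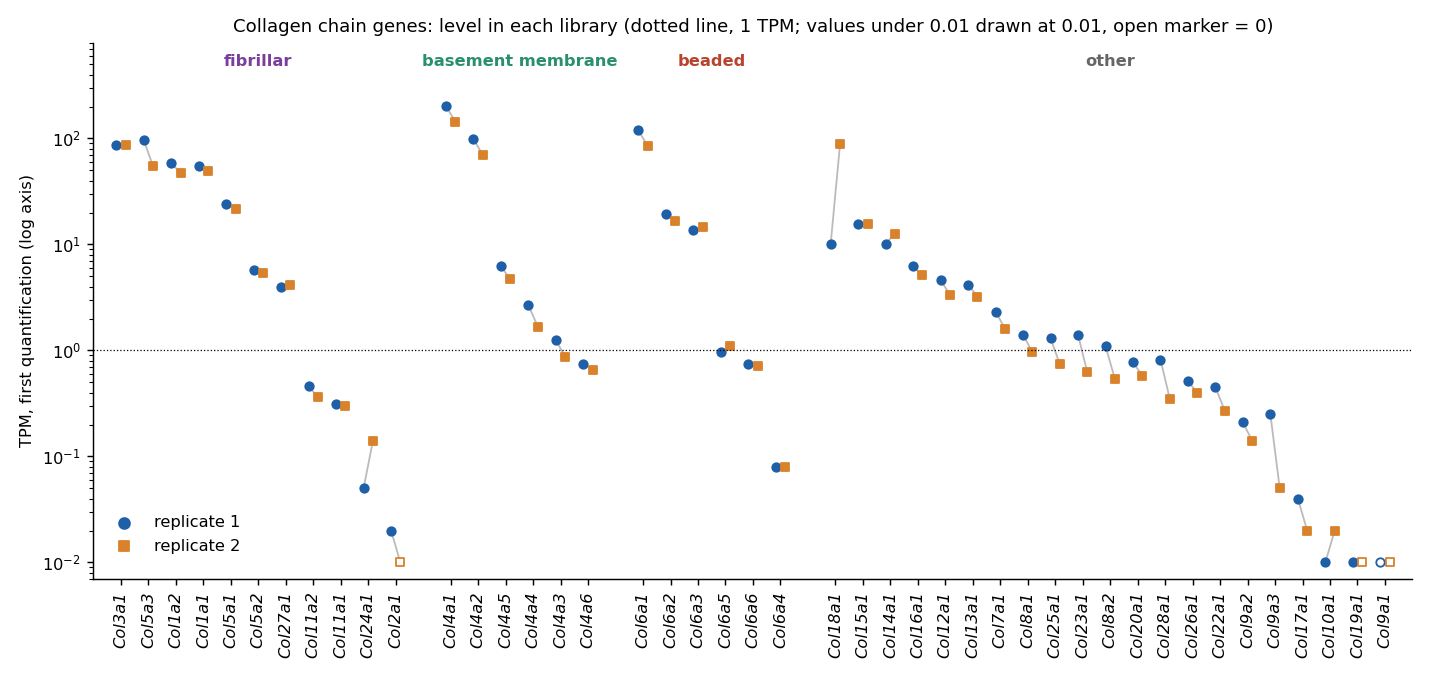
TPM of each of the 44 collagen chain genes (log axis) in replicate 1 (circles) and replicate 2 (squares), grouped by class and ordered by mean level within each class, with the dotted line at 1 TPM. Levels span from 201.4 TPM (Col4a1, replicate 1) to 0, and Col18a1 is the chain with the widest gap between the libraries.

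Col4a1 was the most abundant collagen mRNA in both libraries. Its protein is a core chain of the collagen IV network of nearly all basement membranes. Col4a1 (chr8:11198423-11312826, minus strand) had 201.4 TPM in replicate 1, against 144.0 TPM in replicate 2. It stood 299th in mean level among nuclear protein-coding genes. Its partner Col4a2 (chr8:11312805-11449287, plus strand) had 98.4 TPM in replicate 1, against 69.8 TPM in replicate 2. Both chains were higher in replicate 1, and the pair made up 35.0% and 28.7% of collagen TPM.

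The remaining basement membrane chains were far lower. Col4a5, a chain of the Col4a3-Col4a4-Col4a5 network known from kidney and lung, had 6.22 TPM in replicate 1, against 4.67 TPM in replicate 2. Col4a4 had 2.66 and 1.68 TPM and Col4a3 had 1.26 and 0.86 TPM in replicates 1 and 2, and Col4a6 was under 1 TPM in both.

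The fibrillar class was led by the chains of collagens III, V and I. Col3a1 (chr1:45311538-45349706, plus strand), the single chain of collagen III in distensible tissue and vessel walls, had 85.98 TPM in replicate 1, against 86.91 TPM in replicate 2. Col1a2 had 58.1 TPM in replicate 1, against 47.7 TPM in replicate 2. Col1a1 had 54.9 TPM in replicate 1, against 49.2 TPM in replicate 2. Both encode the chains of collagen I, the main fibril of fibrous capsules, and their levels were close to each other in each library.

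Col5a3 was the most abundant chain of collagen V. It encodes a chain that in mice is known from adipose tissue, skeletal muscle and pancreatic islets, whereas Col5a1 and Col5a2 form the common collagen V that starts collagen I fibrils. Col5a3 (chr9:20770050-20815067, minus strand) had 96.8 TPM in replicate 1, against 54.5 TPM in replicate 2. Col5a1 had 24.0 TPM in replicate 1, against 21.4 TPM in replicate 2. Col5a2 had 5.78 TPM in replicate 1, against 5.35 TPM in replicate 2.

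Other fibrillar chains were scarce. Col27a1, a chain of cartilage and developing tissues, had 3.95 TPM in replicate 1, against 4.10 TPM in replicate 2. Col11a1, Col11a2 and Col24a1 lay between 0.05 and 0.46 TPM in both libraries. Col2a1, the main collagen of cartilage, had 3 counts in replicate 1 and 0 in replicate 2, where 3 counts would equal 0.0516 TPM. Among cartilage and bone markers Matn1, Matn3 and Ibsp had 0 counts in both libraries, and the list of 8 summed to 3.29 TPM in each. Most of that sum was Hapln1, with 2.26 and 1.99 TPM in replicates 1 and 2. Acan had 0.49 and 0.76 TPM and was lower in replicate 1.

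Of the beaded chains, Col6a1 dominated. Col6a1 (chr10:76708792-76726168, minus strand) had 119.0 TPM in replicate 1, against 84.8 TPM in replicate 2. Col6a2 had 19.4 TPM in replicate 1, against 16.7 TPM in replicate 2. Col6a3 had 13.7 TPM in replicate 1, against 14.6 TPM in replicate 2. These 3 chains assemble in equal number into collagen VI, yet the Col6a1 mRNA stood several fold above those of Col6a2 and Col6a3 in both libraries. Col6a5, Col6a6 and Col6a4, related chains that lie side by side on chromosome 9, ranged from 0.08 to 1.09 TPM, and Col6a5 and Col6a6 shared reads, with a posterior SD of up to 1.46 counts.

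Among the other classes, the multiplexins and 2 FACIT chains stood out. Col15a1, a multiplexin of vessel and muscle basement membranes, had 15.4 TPM in replicate 1, against 15.6 TPM in replicate 2. Col14a1, a FACIT chain that regulates fibril growth, had 10.2 TPM in replicate 1, against 12.7 TPM in replicate 2. Col16a1, another FACIT chain, had 6.20 TPM in replicate 1, against 5.11 TPM in replicate 2. Col12a1, a further FACIT chain (4.61 and 3.34 TPM), and Col13a1, a transmembrane chain of neuromuscular and other cell contacts (4.18 and 3.22 TPM), followed, and Col7a1, which forms anchoring fibrils, had 2.32 and 1.61 TPM in replicates 1 and 2.

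Col8a1, a short network chain of vessels, had 1.41 and 0.96 TPM in replicates 1 and 2. Col20a1, Col28a1, Col26a1, Col9a2 and Col9a3 ranged from 0.05 to 0.82 TPM. Nt5dc1 covers Col10a1 on the opposite strand and BX649560.1 overlaps Col20a1 on the same one, so the source of reads there may be ambiguous. The posterior SD of both chains was nevertheless 0 counts in each library. Of all chains Col3a1 had the largest posterior SD, 7.29 and 7.78 counts in replicates 1 and 2, on 13733 and 13943 counts.

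The chains of specialised tissues were near or at 0. Col9a1 of cartilage had 0 counts in both libraries, where 3 counts would equal 0.0428 TPM in replicate 1, against 0.0431 TPM in replicate 2. Col19a1 had 2 counts in replicate 1 and 0 in replicate 2. Col10a1 of growth-plate cartilage had 1 count in replicate 1 and 2 in replicate 2, and Col17a1 of epidermal hemidesmosomes had 3 in each. At this depth these 4 genes and Col2a1 were below what the test could use, which does not show that they were absent.

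The order of levels was similar at the top: Col4a1 stood first in both libraries. Col6a1, Col4a2, Col5a3 and Col3a1 held places 2 to 5 in replicate 1 and places 4, 5, 6 and 3 in replicate 2. Among them the gaps between neighbours in mean level were mostly smaller than the spread of each chain between the libraries. Col6a1 averaged 101.9 ± 24.2 TPM, Col3a1 86.4 ± 0.658, Col4a2 84.1 ± 20.2 and Col5a3 75.6 ± 29.9 TPM (SD, n = 2 each). Within each library, however, Col6a1 lay above Col4a2 and Col4a2 above Col5a3, and all 3 were higher in replicate 1. Only the place of Col3a1 among them differed between the libraries. Col1a2 (52.9 ± 7.35 TPM) and Col1a1 (52.0 ± 3.99 TPM) were not separated in the first quantification, since their order differed between the libraries. In the second, Col1a2 lay above Col1a1 in both libraries. Col4a1, at 172.7 ± 40.6 TPM, lay above all of them in each library.

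Replicate 1 was then compared with replicate 2 with a two-sided exact binomial test of the rounded expected counts against TMM-scaled library sizes. P-values were Benjamini-Hochberg adjusted over 19801 genes, with a threshold of 0.05. Such a test with 1 library a side compares these libraries, not a condition, and has no replicate check. Of the 39 chains tested, 16 were higher in replicate 1, 9 were lower and 14 did not pass, and the background over all genes tested was 18.4% higher and 20.7% lower. The median log2 ratio, replicate 1 over replicate 2, was 0.22 for the members and 0.01 over all genes tested. The split depended on the scaling: 64.0% of the members' calls were higher in replicate 1 under TMM, 92.0% under total counts (23 higher and 2 lower) and 93.1% under spike-in totals (27 higher and 2 lower). Scaling shifted all genes alike, with a median log2 ratio over genes of at least 1 TPM of 0.02 under TMM, 0.25 under total counts and 0.37 under spike-in totals, and the ratios below use TMM.

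At a difference of at least 2-fold, 0 chains were higher in replicate 1 and 1 was lower, against a background of 2.29% higher and 8.56% lower over all genes tested. That chain was Col18a1. The counts by class are at any fold, where 18.4% of all genes tested were higher and 20.7% lower. Of 14096 tested genes with a mean of at least 1 TPM, 3322 were higher and 3479 lower. By class, 5 of 6 basement membrane chains tested were higher in replicate 1 and 0 were lower, and Col4a6 did not pass. Of 10 fibrillar chains tested, 2 were higher and 5 lower. Of 6 beaded chains, 1 was higher and 2 lower, and of 17 others, 8 were higher and 2 lower.

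**Figure D3:**
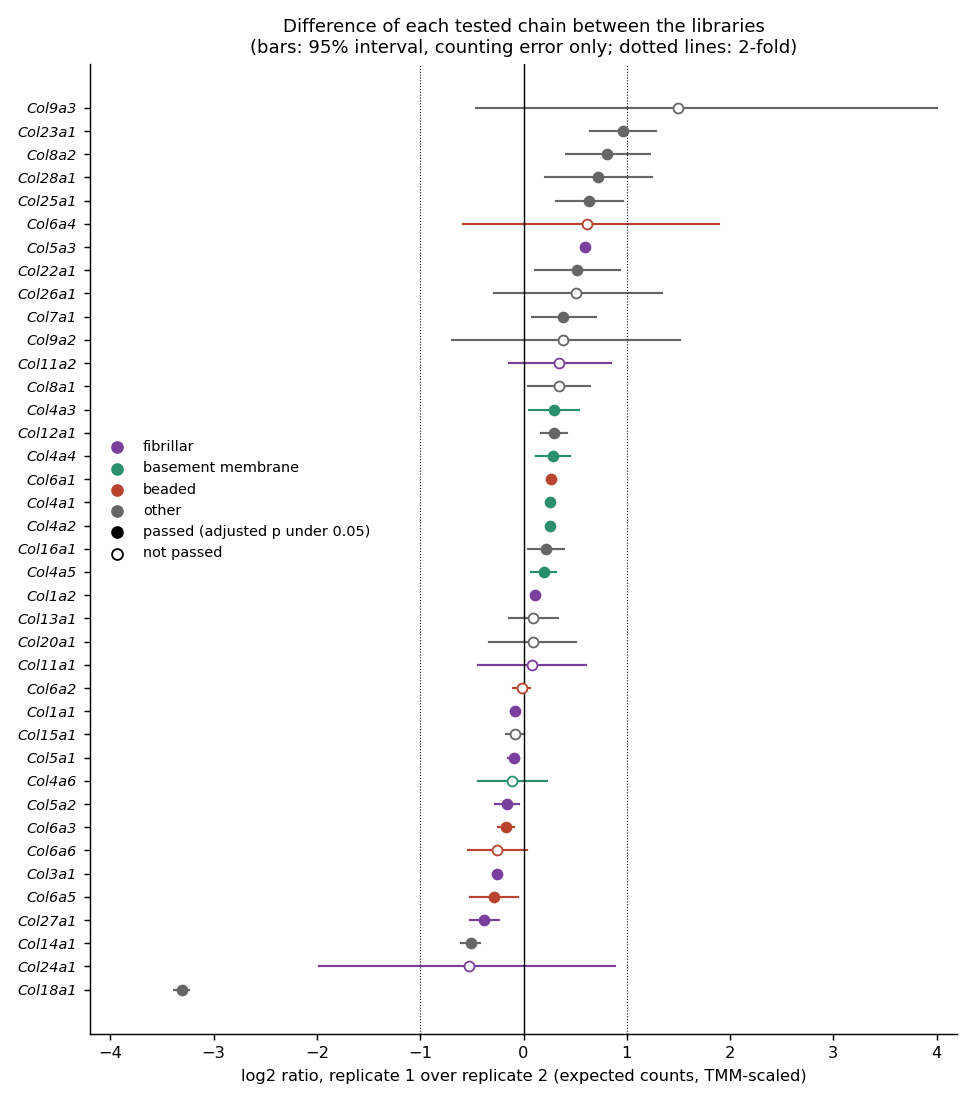
log2 ratio of replicate 1 over replicate 2 for the 39 tested chains (points, coloured by class; filled where the adjusted p was under 0.05), with 95% intervals that cover counting error only and dotted lines at 2-fold. Most chains lie within 2-fold, with Col18a1 far to the left at -3.31 and Col5a3 the highest of the abundant chains at 0.59.

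The basement membrane and beaded leaders moved by nearly the same amount. The log2 ratio was 0.26 for Col4a1, 0.25 for Col4a2 and 0.26 for Col6a1 (exact binomial test, adjusted p = 1.4e-101, 2.7e-60 and 9.4e-49). Of 15 laminin chains and other basement membrane partners 8 were higher in replicate 1, 1 was lower and 6 did not pass, with a median log2 ratio of 0.09. Of 10 endothelial markers 6 were higher in replicate 1 and 0 lower, and they summed to 301.5 and 236.9 TPM. For both lists the share over all genes tested was 18.4% higher and 20.7% lower. The part of endothelial RNA in the basement membrane chains was not tested.

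Col5a3 had a log2 ratio of 0.59 (95% interval 0.56 to 0.63; exact binomial test, adjusted p = 1.1e-266), a 1.51-fold higher level in replicate 1. Col5a1 went the other way, at -0.10, and the ratio of Col5a3 to Col5a1 was 4.03 in replicate 1 and 2.55 in replicate 2. Markers of white fat summed to 1870 and 1380 TPM in replicates 1 and 2, those of brown fat to 1173 and 802.5 TPM, and those of steroid-producing cells to 12342 and 6802 TPM, beside the muscle difference given above. All of these sums were higher in replicate 1, though not every marker was. Of 6 white fat markers 5 were higher and 1 lower, with a median log2 ratio of 0.12. Of 5 brown fat markers 4 were higher and 1 lower (median 0.31), and all 7 steroid cell markers were higher (median 0.64). Over all genes tested 18.4% were higher and 20.7% lower. The part of these tissues in the Col5a3 result was not tested.

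Apart from Col18a1, 8 chains of several classes were lower in replicate 1 with TMM scaling. Log2 ratios were -0.26 for Col3a1, -0.51 for Col14a1, -0.38 for Col27a1, -0.29 for Col6a5, -0.17 for Col6a3, -0.16 for Col5a2, -0.10 for Col5a1 and -0.08 for Col1a1. Col1a2, the partner of Col1a1, was higher in replicate 1 at 0.12, as were the FACIT chains Col12a1 at 0.29 and Col16a1 at 0.22. Of the 8 chains, Col1a1, Col5a1 and Col5a2 had the higher TPM in replicate 1. Scaled by total counts, Col1a1, Col5a1, Col5a2 and Col6a3 changed sign, and scaled by spike-ins Col3a1 and Col6a5 did too. Col14a1 and Col27a1 stayed below 0 under each of the 4 scalings, though with spike-in totals they were at -0.16 and -0.02. Of the capsule and stromal markers, 3 of 11 were higher in replicate 1, 0 were lower and 8 did not pass, against 18.4% higher and 20.7% lower over all genes tested.

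Among chains of less than 2 TPM on average, 6 were higher in replicate 1 beside Col4a3. Col23a1, a transmembrane collagen, had 1.40 TPM in replicate 1, against 0.62 TPM in replicate 2, with a log2 ratio of 0.96. Col8a2, a short network chain, had 1.10 and 0.54 TPM and a ratio of 0.81. Col28a1, known from glia of peripheral nerves in mice, had 0.82 and 0.35 TPM and a ratio of 0.72. Col25a1, which is made by developing muscle fibres and attracts motor axons in mice, had 1.30 and 0.74 TPM and a ratio of 0.63. Col22a1, which marks the junction of muscle and tendon, had 0.45 and 0.27 TPM and a ratio of 0.52. The sixth, Col7a1, had a ratio of 0.39. They passed the test on 49 to 266 counts a library, and the part of skeletal muscle RNA in them was not tested.

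Col18a1 was the exception to the family. It encodes a multiplexin of basement membranes that carries endostatin, a fragment that restrains vessel growth, and liver is a known rich source. Col18a1 (chr10:77052178-77166548, minus strand) had 10.2 TPM in replicate 1, against 88.6 TPM in replicate 2. The expected counts were 1711 in replicate 1 and 14346 in replicate 2. It stood 12th among collagen chains in replicate 1, level with Col14a1, and 2nd in replicate 2. The log2 ratio was -3.31 (95% interval -3.38 to -3.23), a 9.89-fold higher level in replicate 2 (9.41 to 10.4), with an adjusted p smaller than the smallest number that could be stored. It was also past 2-fold when scaled by total counts or by spike-ins.

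The 2 annotated starts of Col18a1 differed in use. In mice the upstream promoter gives the shortest protein and serves most vascular and epithelial basement membranes, and the downstream promoter gives the longer proteins and is the one used by hepatocytes. Transcript Col18a1-202, from the upstream start, codes for 1315 residues, and Col18a1-203 and Col18a1-201, from the downstream start, code for 1527 and 1774. Both are shown by the 30 bases that precede the RefSeq start (minus strand, GRCm38.p6), at chr10:77166531-77166560 and chr10:77113706-77113735. The RefSeq starts are bases 77166530 and 77113705, and the second is also the start of Col18a1-203. In GENCODE, Col18a1-202 starts at 77166548 and Col18a1-201 at 77113946. Part of the first stretch and all of the second thus lie within the span of those 2 transcripts.
Col18a1 upstream: cccctgcccacccctgccctagcccgcagc
Col18a1 downstream: gcaggccccacctccaggaccacaggagcc

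In the 250 bases before the upstream RefSeq start 62.0% were G or C with 12 CpG pairs, and before the downstream RefSeq start 57.6% with 3 CpG pairs. The upstream start had 8.80 TPM in replicate 1, against 34.7 TPM in replicate 2, a 3.95-fold higher level in replicate 2. The downstream start had 1.24 TPM in replicate 1, against 52.5 TPM in replicate 2, a 42.3-fold higher level in replicate 2. In the second quantification these folds were 3.80 for the upstream start and 24.1 for the downstream start. In terms of expected counts the downstream start had 215.7 in replicate 1 and 8470 in replicate 2.

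The leading start thus differed between the libraries. Upstream transcripts made up 86.4% of Col18a1 TPM in replicate 1 and 39.2% in replicate 2, and downstream transcripts 12.2% and 59.2%. The second quantification gave shares of 58.4% and 25.8% for the upstream start and 16.9% and 47.2% for the downstream start, with the remainder on fragments that hold neither start. Transcript shares come from models that divide shared reads, and no error was set on them here.

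**Figure D4:**
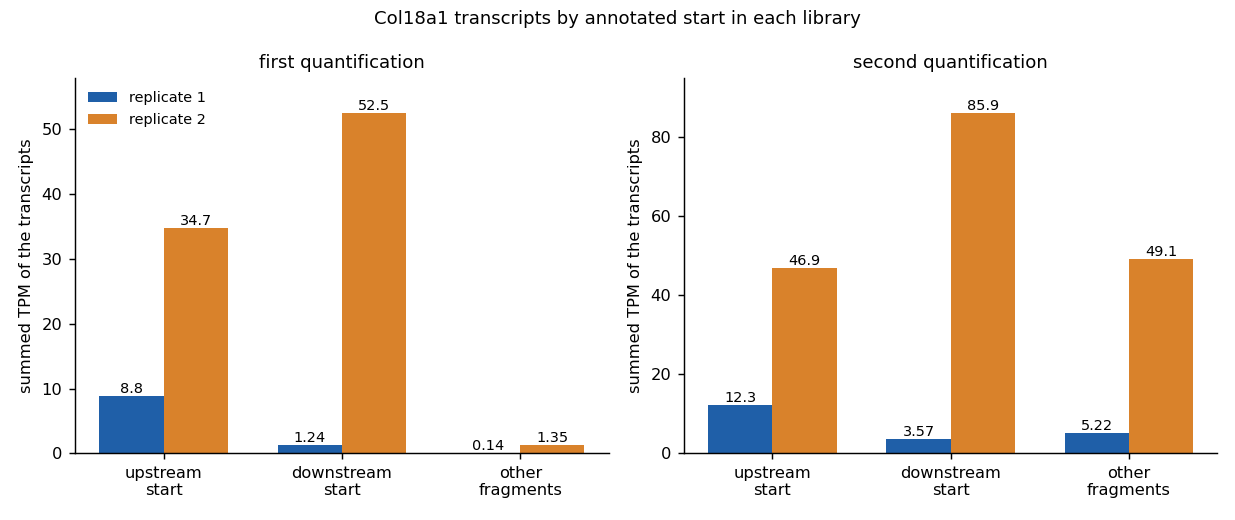
Summed TPM of Col18a1 transcripts by annotated start, in replicate 1 (left bars) and replicate 2 (right bars), for the first quantification (left) and the second (right). The downstream start differs most, with 1.24 TPM in replicate 1, against 52.5 TPM in replicate 2, in the first quantification.

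Liver markers were also higher in replicate 2. Alb, serum albumin, had 16.3 TPM in replicate 1, against 11949 TPM in replicate 2. Of 6 hepatic stellate markers 4 were at least 2-fold lower in replicate 1, including Lrat, the retinyl ester enzyme of those cells, with 0.04 TPM in replicate 1, against 1.79 TPM in replicate 2. The most abundant of that list did not share this: Rgs4 was higher in replicate 1, with 12.9 and 8.52 TPM, and Hand2, with 11.95 and 10.2 TPM, did not pass. Fn1, the plasma and matrix fibronectin, had 21.2 TPM in replicate 1, against 153.7 TPM in replicate 2. The part of liver RNA in the Col18a1, Fn1 and total collagen values was not tested. Of the abundant fibrillar chains, Col1a1, Col1a2 and Col3a1 summed to 198.9 TPM in replicate 1 and 183.8 TPM in replicate 2. That was 23.2% and 24.7% of collagen TPM, a total that includes Col18a1. Col5a3 had 96.8 TPM in replicate 1, against 54.5 TPM in replicate 2.

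Chains that share a trimer were set against each other within each library, where depth and scaling cancel. In collagen I, which holds Col1a1 chains in excess over Col1a2 chains, Col1a1 over Col1a2 was 0.945 in replicate 1 and 1.03 in replicate 2. In collagen IV, whose common trimer holds Col4a1 chains in excess over Col4a2 chains, Col4a1 over Col4a2 was 2.05 in replicate 1 and 2.06 in replicate 2. In collagen VI, Col6a1 over Col6a2 was 6.14 in replicate 1 and 5.08 in replicate 2, and Col6a3 over Col6a2 was 0.708 and 0.873. Col5a2 over Col5a1 was 0.241 in replicate 1 and 0.250 in replicate 2.

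The collagen IV ratio depended on how transcripts were counted. The second quantification gave 3.21 in replicate 1 and 3.28 in replicate 2. It assigned 21.6% and 20.9% of Col4a1 TPM to the short transcript Col4a1-204, to which the first assigned 0. Both assigned a share to another transcript, Col4a1-203. In the first this was 23.3% and 23.5% of Col4a1 TPM, on 716.2 and 512.7 counts, and in the second 17.5% and 15.7%. When the transcript of the longest coding sequence of each gene was taken alone, Col4a1-201 over Col4a2-201 was 1.56 and 1.55 in the first quantification and 1.56 and 1.55 in the second. For collagen I, the second quantification gave 0.738 and 0.782 for the genes in replicates 1 and 2. Col1a1-201 over Col1a2-201 was 0.966 and 1.12 in replicates 1 and 2 of the first quantification, and 0.954 and 1.09 in the second. For Col6a1-201 over Col6a2-201 the values were 6.43 and 5.40. This alternative was chosen after the data were seen.

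**Figure D5:**
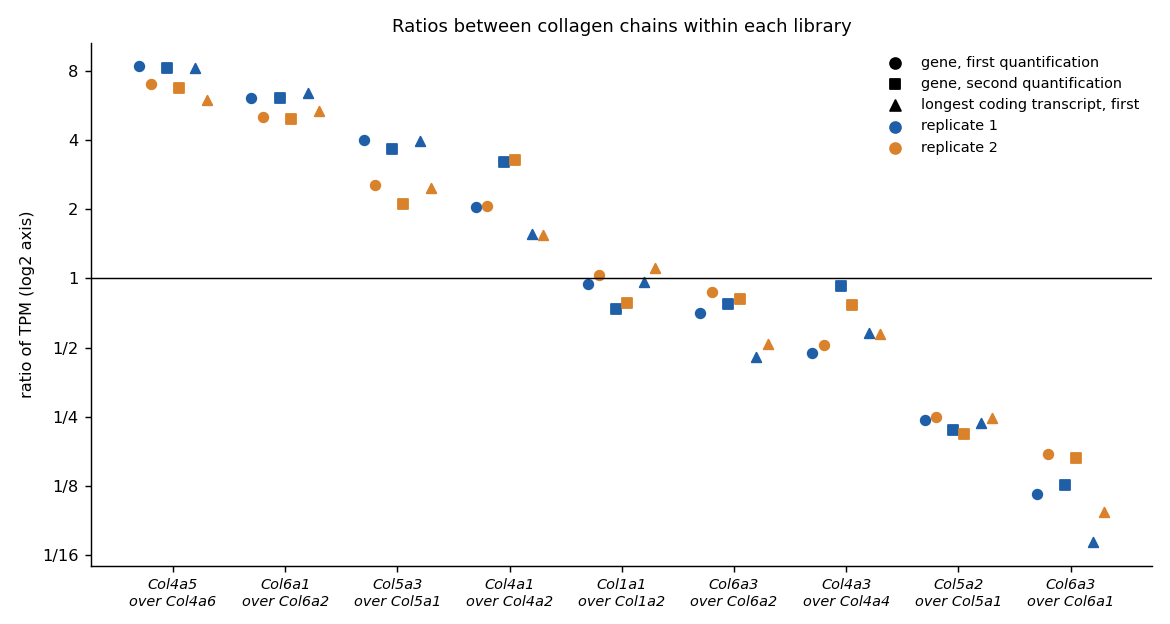
Ratio of TPM between collagen chains within each library (log2 axis), for genes in the first (circles) and second (squares) quantification and for the transcript of the longest coding sequence in the first (triangles), with replicate 1 left of replicate 2 in each pair. Col6a1 stands above Col6a2 by 5.08-fold or more in the first quantification, and Col4a1 over Col4a2 takes 3 different values by counting method, each nearly the same in both libraries.

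Pairs of collagen IV chains lie head to head. Col4a1 and Col4a2 overlap by 22 bases at their annotated starts (chr8:11312805-11312826), and the window is printed on the plus strand (RefSeq, GRCm38.p6), as is the 71-base gap between the starts of Col4a4 and Col4a3 (chr1:82586850-82586920).
Col4a1-Col4a2 overlap: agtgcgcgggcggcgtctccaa
Col4a4-Col4a3 gap: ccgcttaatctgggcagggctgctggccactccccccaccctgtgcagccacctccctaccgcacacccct

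Col4a5 and Col4a6 lie 1308 bases apart on the X chromosome in the same arrangement. Col4a5 over Col4a6 was 8.40 in replicate 1 and 7.08 in replicate 2, and Col4a3 over Col4a4 was 0.474 and 0.512. In the second quantification Col4a3 over Col4a4 was 0.925 and 0.768, so that difference depends on the quantification. Col6a1 and Col6a2, on the same strand of chromosome 10 and 85161 bases apart, differed 5.08-fold or more. Without a statement that counting used the strand, reads over the 22 shared bases cannot be assigned to either gene, and each gene had at least 15042 counts in either library. Slc19a1 likewise overlaps the end of Col18a1 on the opposite strand over 8825 bases, with 595 and 539 counts in replicates 1 and 2.

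RefSeq start windows (GRCm38.p6) were found for 35 of the 44 chains. In the 250 bases before the start the median of G and C was 59.6% for collagen chains and 52.4% over 27025 genes with a window. The letters GGGCGG, the core of the GC box, were found on either strand in 21 of 35 chains (60.0%) and in 35.4% of all genes. The letters CCAAT were found in 13 chains (37.1%) and in 37.5% of all genes, and TATAAA in 5 (14.3%) and in 14.3%. No string holds another. Among the 13 chains with a mean of at least 5 TPM, 8 held GGGCGG, 7 held CCAAT and 1, Col3a1, held TATAAA. A match is a description of letters and not a binding site.

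With the second quantification 15 chains were higher in replicate 1 and 9 lower, and Col4a3 no longer passed. Its levels were on another scale. Over 26 chains with a mean of at least 1 TPM the second gave a median of 1.66 times the first in replicate 1 and 1.58 times in replicate 2, against 1.73 and 1.66 times for nuclear protein-coding genes. The largest ratios were those of Col4a1 (2.54 in replicate 1 and 2.46 in replicate 2), Col4a3 (2.69 and 2.16) and Col18a1 (2.07 and 2.05), by the mean of both. The smallest were those of Col12a1 (1.16 and 1.24), Col15a1 (1.34 and 1.16) and Col4a4 (1.38 and 1.44). With the second quantification 29 chains reached 1 TPM in both libraries, against 21 with the first.

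The machinery that makes the protein was expressed alongside. Of 21 genes for collagen folding and modification, 6 were higher in replicate 1, 9 lower and 6 did not pass. For this list and the partner lists that follow, the share over all genes tested was 18.4% higher and 20.7% lower. Serpinh1, the collagen-specific chaperone, had 129.6 TPM in replicate 1, against 101.5 TPM in replicate 2. P4hb, the disulphide isomerase that is also a subunit of prolyl hydroxylase, had 148.8 TPM in replicate 1, against 331.8 TPM in replicate 2, with a log2 ratio of -1.35. Ppib, a prolyl isomerase, had 99.3 and 139.4 TPM and a ratio of -0.69. Both serve secretory proteins in general and were lower in replicate 1, as were the liver markers, whose part here was not tested.

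Among 13 tested genes for procollagen trimming and cross-linking, 3 were higher and 3 lower in replicate 1. Pcolce, which enhances removal of the C-propeptide, had 264.8 TPM in replicate 1, against 173.1 TPM in replicate 2, above every collagen chain in either library. Bmp1, the protease it helps, had 19.97 and 28.3 TPM, and Pxdn, which cross-links collagen IV, had 22.6 and 17.8 TPM. Of 12 fibril partners 3 were higher and 4 lower: Sparc, a collagen-binding matricellular protein, had 1026 TPM in replicate 1, against 637.3 TPM in replicate 2, and Bgn, the proteoglycan biglycan, had 75.7 and 59.8 TPM.

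Among the basement membrane partners Lamb1, the laminin chain with the largest log2 ratio of that list (0.43), had 60.9 TPM in replicate 1, against 38.2 TPM in replicate 2. Hspg2, or perlecan, had 62.9 TPM in replicate 1, against 50.9 TPM in replicate 2, and Lamc1 had 41.6 and 29.4 TPM. Of 10 collagen receptors 3 were higher and 2 lower: Itgb1, the shared integrin subunit, had 94.5 and 68.5 TPM, Itga1, the collagen IV-binding subunit, 10.2 and 10.9 TPM, and Ddr1, a receptor kinase, 13.6 and 11.1 TPM. Of 10 tested degradation genes 1 was higher and 1 lower. Timp3, a matrix-bound inhibitor of metalloproteinases, had 152.5 TPM in replicate 1, against 89.1 TPM in replicate 2, Timp2 had 27.9 and 23.4 TPM, and Mmp14, a membrane-anchored collagenase, had 18.4 and 17.0 TPM.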

How the data were processed

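Adrenal total RNA was sequenced in 2 libraries, numbered as in the labels. Both quantifications used mm10 and annotation M21, per the deposited text files; the sources used here name no aligner or quantifier, nor the use of strand. The first tables hold the authors' expected counts, TPM, the percent of a gene's TPM on each transcript and a posterior SD of counts, per the file headers; the second hold the authors' estimated counts and TPM of transcripts, summed here over each gene. Deposited FPKM was not used. Entries that name no gene, 0.839% and 0.915% of counts, nearly all spike-ins, stayed out of library sizes.

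Expected counts were rounded. TMM factors were 1.08 and 0.923 (edgeR 4.0.16), and the test was tried on simulated data. edgeR's quasi-likelihood test was not run, since 1 library a side leaves no residual degrees of freedom. The members, lists and rules were chosen with earlier results of these data known. Genes named are chains of at least 5 TPM or at 0 counts and the 3 highest of each partner list. Also named are chains at least 2-fold different and extremes between quantifications. Other chains, Hapln1, Acan, Lrat, Rgs4, Hand2 and Alb were named after their values were seen. Glycine repeats were read from GENCODE M21 coding sequence. Alternatives were DESeq2 size factors, total counts, spike-in totals, other count minimums, the second quantification, each library alone, and, added after seeing the data, the longest coding transcript and leaving out Col18a1.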

Additional observations from a re-analysis of the deposited data

How the results depend on the processing

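No paired analysis was possible because there is 1 group. With total counts 2 chains were lower in replicate 1 and 3 differed at least 2-fold (Col18a1, Col23a1 and Col8a2). With spike-in totals 27 were higher, 2 lower and 4 differed at least 2-fold (Col28a1 added). Among chains with a mean of at least 5 TPM, log2 ratios that changed sign with total counts were Col1a1 0.15, Col5a1 0.14, Col6a2 0.22, Col15a1 0.15, Col6a3 0.06 and Col5a2 0.075. With spike-in totals they were Col3a1 0.10, Col1a1 0.28, Col5a1 0.26, Col6a2 0.34, Col15a1 0.27, Col6a3 0.19 and Col5a2 0.20. Among lower tested chains Col4a6 changed sign with both scalings (0.12 and 0.25), and Col6a5 (0.07) and Col6a6 (0.11) with spike-in totals. Each scaling moves all genes together. DESeq2 size factors and other count minimums moved no count of calls by over 1.5 times.

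The collagen share of TPM was 0.236% relative to nuclear protein-coding genes and 0.152% in the second quantification; by class these were 0.0885% and 0.0541% (fibrillar), 0.0787% and 0.0582% (basement membrane), 0.0401% and 0.0221% (beaded) and 0.0284% and 0.0174% (other). On the log2 scale, the second quantification gave -0.40 for Col1a1 over Col1a2, 1.70 for Col4a1 over Col4a2, -2.22 for Col5a2 over Col5a1 and -0.25 for Col4a3 over Col4a4. Longest coding transcripts gave 0.054 for Col1a1 over Col1a2, 0.64 for Col4a1 over Col4a2, -3.60 for Col6a3 over Col6a1 and -0.80 for Col4a3 over Col4a4. With each library alone Col1a1 over Col1a2 ranged from -0.082 to 0.046. The causes of these shifts in ratio were not tested. Depth limits chains with under 10 counts.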
